A study of Mus musculus with 12 samples.

Results

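The regions described here were the broad H3K4me3 domains of mouse mesenchymal stem cells (MSCs) kept at 21% O2. Touching intervals of the H3K4me3 peak list of that condition were merged, and merged domains of 5000 bp or more were kept. This gave 921 domains of 13136, covering 5.913 Mb, which was 15% of the bases called for H3K4me3. The members were thus selected on their H3K4me3 width at 21% O2, so width is given as a description and no test was made on it. The study used endosteal MSCs from the hind-limb bones of wild-type male C57BL/6N mice (3 to 5 months by the labels, which call the cells Bone-marrow MSCs). They were sorted as CD45-/TER-119-/CD140a+/Sca-1+ cells and cultured at 2% O2 (hypoxia) or 21% O2 (normoxia), to ask how prolonged high oxygen affects chromatin and cell fate; by the methods the exposure followed a sort from cells grown at 2% O2, whereas the labels place the sort after it. Chromatin immunoprecipitation followed by sequencing (ChIP-seq) gave 12 libraries in 6 groups of 2, namely H3K27ac, H3K4me3 and input chromatin at each oxygen level. Both libraries of a mark and oxygen level were joined by the authors in 1 peak list, so the 4 lists carry no replicates, no read counts and no depth. No test between oxygen levels could therefore be made, and a value below is a called position, a share of domains, or a property of the DNA under them. Intervals in brackets are 95% Wilson intervals, which cover counting error only and treat neighbouring domains as independent.

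H3K4me3 is the trimethylation of lysine 4 of histone H3. It is laid down by SET1 and MLL complexes around transcription starts, above all over CpG islands, which are stretches of DNA rich in unmethylated CG dinucleotides, and at most genes it is limited to the nucleosomes next to the start. At some genes it extends much further into the gene, and such broad domains are known for marking genes that define a cell's identity, often transcription factors and signalling regulators. H3K27ac, the acetylation of lysine 27, lies at active promoters and enhancers, and promoters that carry H3K4me3 without H3K27ac include many developmental genes kept silent by Polycomb.

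To show the DNA on which these domains rest, promoter windows of 300 bases from RefSeq (GRCm38.p6, the same assembly as mm10) are given for 4 genes, from 250 bases before the start to 50 after it, 5′ to 3′ along the gene, with each CG in capitals. Nfix and Twist1 are transcription factor genes whose domains were covered by H3K27ac at both oxygen levels, Gata2 had H3K27ac in hypoxia only (its window lies under that peak), and Tbx1 had the widest domain without H3K27ac.
Nfix, chr8:84780033-84780332, minus strand: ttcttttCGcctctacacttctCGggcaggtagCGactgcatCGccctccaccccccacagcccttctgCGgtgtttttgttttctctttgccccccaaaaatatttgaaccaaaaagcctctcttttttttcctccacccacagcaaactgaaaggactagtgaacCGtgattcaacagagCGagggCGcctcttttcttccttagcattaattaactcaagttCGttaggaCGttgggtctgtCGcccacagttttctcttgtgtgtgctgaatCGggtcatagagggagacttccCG
Twist1, chr12:33957421-33957720, plus strand: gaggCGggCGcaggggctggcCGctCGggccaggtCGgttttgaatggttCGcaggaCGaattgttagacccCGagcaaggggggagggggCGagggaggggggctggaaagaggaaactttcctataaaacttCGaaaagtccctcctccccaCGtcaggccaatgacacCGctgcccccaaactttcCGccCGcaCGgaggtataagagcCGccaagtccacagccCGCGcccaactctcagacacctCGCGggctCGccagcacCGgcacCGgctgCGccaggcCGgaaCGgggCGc
Gata2, chr6:88198414-88198713, plus strand: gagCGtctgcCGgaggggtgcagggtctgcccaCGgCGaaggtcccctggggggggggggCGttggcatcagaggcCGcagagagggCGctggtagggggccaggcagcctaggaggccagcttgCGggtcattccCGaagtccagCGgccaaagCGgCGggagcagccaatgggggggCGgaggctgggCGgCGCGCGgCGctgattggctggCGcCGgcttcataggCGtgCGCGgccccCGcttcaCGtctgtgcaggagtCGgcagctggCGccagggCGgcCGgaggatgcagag
Tbx1, chr16:18588850-18589149, minus strand: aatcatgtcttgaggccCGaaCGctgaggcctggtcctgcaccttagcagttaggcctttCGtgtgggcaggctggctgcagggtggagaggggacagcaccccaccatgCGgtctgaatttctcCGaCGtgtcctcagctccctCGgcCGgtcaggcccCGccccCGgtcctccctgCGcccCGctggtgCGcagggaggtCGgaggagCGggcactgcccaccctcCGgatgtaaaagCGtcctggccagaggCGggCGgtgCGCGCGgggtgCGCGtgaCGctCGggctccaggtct
The Nfix window held 13 CG sites, that of Twist1 27, that of Gata2 29 and that of Tbx1 26. Nfix had 4 windows in its domain and Tbx1 2, and the window with the most CG sites is shown. Their counts are thus the highest of the gene, whereas the comparison below counts every window. Of all 32851 promoter windows in the RefSeq table, 37.9% held 13 or more and 12.9% held 29 or more. For the 1318 windows whose start lay in a broad domain the median was 22 CG sites (quartiles 14 and 29), and for the 12456 with a start in a narrower domain it was also 22 (15 and 30), whereas it was 3 for the 19077 without H3K4me3. The CG content of the promoter thus had the same median at broad and narrower domains.

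Broad domains also lay over microRNA genes. The mature sequences below come from RefSeq hairpins that lay whole inside a broad domain. They were chosen after their positions were seen because their hairpins are members of conserved families, and the seed (bases 2 to 8), which pairs with target transcripts, is in capitals.
miR-196b-5p: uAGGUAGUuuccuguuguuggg
miR-196a-5p: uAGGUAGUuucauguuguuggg
miR-125b-5p: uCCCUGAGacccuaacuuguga
miR-125a-5p: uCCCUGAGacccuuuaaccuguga
miR-132-3p: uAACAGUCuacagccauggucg
miR-212-3p: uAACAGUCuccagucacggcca
let-7e-5p: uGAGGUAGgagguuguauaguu
miR-22-3p: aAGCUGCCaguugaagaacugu
In this set 3 pairs shared a seed. miR-196b lay in the HoxA domain and miR-196a in a domain of the HoxC cluster on another chromosome, and the mature forms differed by C12A (miR-196b base first, counted from the 5′ end). miR-125b and miR-125a lay on chromosomes 9 and 17, the latter with let-7e in a domain of 5500 bp. miR-132 and miR-212 lay together in the Hic1 domain of 9500 bp on chromosome 11.

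The 921 domains had a median width of 5500 bp (quartiles 5000 and 6500), and 50 of them reached 10000 bp. No gap in the distribution set them apart. Just inside the limit, 261 domains were 5000 bp wide, among them those at Adhfe1 and Rrs1, at Tram2 and at Pou3f3, whereas just outside it 406 were 4500 bp wide, such as those at Cops5 and Cspp1, at Rdh10 and Rpl7, and at Ube2w. A single interval of the list made up 763 of the broad domains, 148 were made of 2 touching intervals and 10 of 3. Domain borders fell on multiples of 500 bp, the step of the peak caller. In the hypoxia list each of the 921 domains had the same start and end, where both lists came from 1 joint model of the peak caller. They occurred on every autosome and on X, at 2% of all H3K4me3 domains on X (8 of 400; 1.02 to 3.9%) and between 5.34% and 9.57% on the autosomes, and none of the 4 domains on Y was broad. The median distance to the next broad domain was 535000 bp, and 144 (15.6%) had another within 50000 bp.

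**Figure D1:**
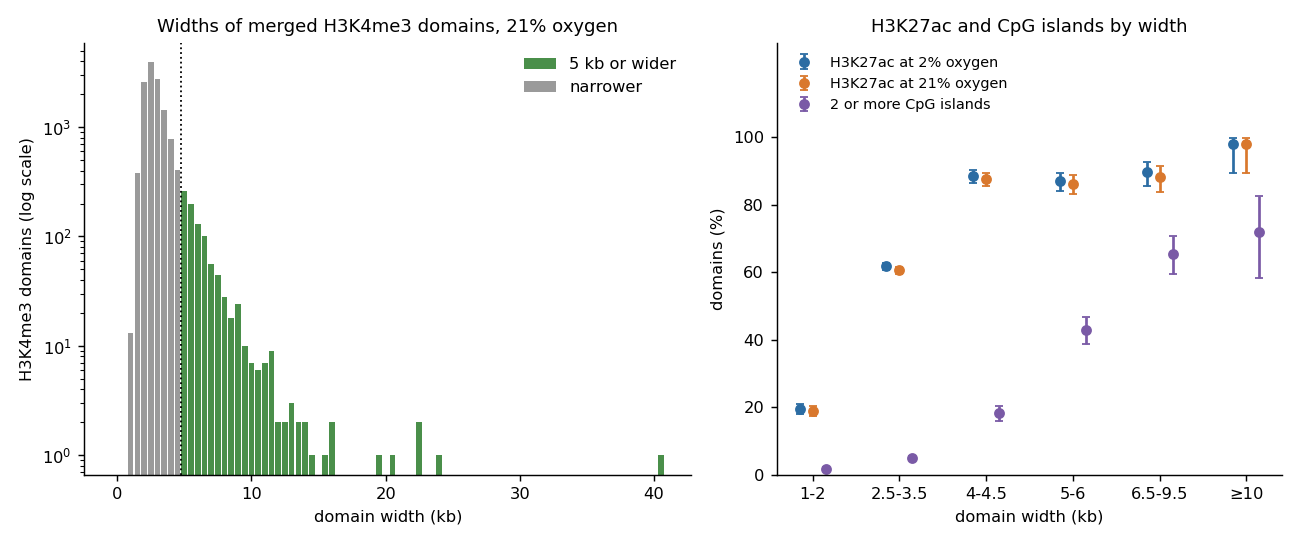
Left: number of merged H3K4me3 domains at 21% O2 (log scale) by width in kb, with the 921 domains of 5000 bp or more in green and narrower ones in grey. Right: percentage of domains in 6 width classes with any H3K27ac at 2% O2 (blue) or 21% O2 (orange), and with at least 2 CpG islands (purple), where bars are 95% Wilson intervals. Counts fall smoothly across the limit, and the H3K27ac share at 4000 or 4500 bp (88.5% at 2% O2) is already at the level of the broad domains (88.4%).

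The widest domain covered 40500 bp of the HoxA cluster (chromosome 6, 52209001 to 52249500, mm10). The Hox genes encode homeodomain factors that fix position along the body axis. The domain held coding starts of Hoxa3, Hoxa7, Hoxa9, Hoxa10, Hoxa11 and the gene model Gm28308, the noncoding starts of Hoxa11os and Mir196b, and overlapped 16 CpG islands, and H3K27ac covered all of it in both oxygen lists. The start of Hoxa6 lay just outside the domain's left end. Hoxa7, Hoxa9, Hoxa10 and Hoxa11 lay whole inside the domain. Most of the Hoxa3 gene (52169062 to 52213336, minus strand) lay beyond the left end, with its outermost start inside. In the HoxC cluster a domain of 22500 bp (chromosome 15, 102962001 to 102984500) held starts of Hoxc9 and Hoxc10 and of Mir196a-2, with 5 islands. Of 39 Hox genes 10 had a start in a broad domain, but these 10 shared 4 domains.

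Of the other widest domains, those with a single coding gene are given first. Nfix, a nuclear factor I protein, had 22500 bp (chromosome 8, 84768501 to 84791000), the widest domain with a single coding gene. Bcl9l, a coactivator of beta-catenin in Wnt signalling, had 20500 bp, and Plec, which encodes the cytoskeletal linker plectin, had 19500 bp with starts at 10 positions. Irf2bpl and Irf2bp2, paralogous transcriptional cofactors, had 15500 bp and 12500 bp. Zfp503, a zinc finger repressor, had 14500 bp, and the large homeodomain gene Zfhx4 had 13500 bp. Smad7, the inhibitory Smad induced by TGF-beta, had 14000 bp, and Tnrc18 had 13500 bp. Kdm6b, a demethylase of the Polycomb mark H3K27me3, had 13000 bp. The other domains with a coding start among the 20 widest were shared between genes. Those of 16000 bp lay over Maz, Mvp, Pagr1a, Prrt2 and Gm42742 on chromosome 7 and over Acadvl and Dlg4 on chromosome 11. Rhof shared 14000 bp with Setd1b, which encodes an H3K4 methyltransferase. Plekhg2 and the mRNA-decay factor gene Zfp36 shared 13000 bp, Lrba and Mab21l2 shared 12500 bp, and Map7d1 and Trappc3 shared 12000 bp. In all, 10 of the 20 held a single coding gene, 8 held 2 or more and 2 held none, while 7 contained at least 1 coding gene from end to end. H3K27ac covered 19 of the 20 completely at 2% O2 and the same number at 21% O2. The exception was the domain of Setd1b and Rhof, with 96.4% at each.

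A coding start lay in 871 of the 921 broad domains (94.6%; 92.9 to 95.9%), where 89.3% of all H3K4me3 domains and 96.4% of those of 4000 or 4500 bp held one. Another 28 broad domains held only starts of noncoding genes and 22 held none of the annotated starts (GENCODE M21 basic). A single coding gene was found in 655, whereas 186 held 2 and 30 held 3 or more. At 23.5%, domains with 2 or more genes were more frequent than among narrower domains (8.97%) or among domains of 4000 or 4500 bp (16.0%). Per 10 kb, broad domains held 1.91 coding genes and narrower ones 3.57. In 173 broad domains the genes lay on both strands. In total 1119 coding genes started in a broad domain, which was 5.12% of 21851 coding genes and 8.77% of the 12753 with a start in any H3K4me3 domain. By base, 19.0% of the broad domains was exon of coding genes, 54.4% intron and 26.6% outside coding genes, against 16.9%, 52.5% and 30.6% for narrower domains. The 1119 genes had a median length of 17.4 kb (quartiles 6.43 and 51.1), below the 26.7 kb (11.4 and 62.9) of the 11634 genes with narrower domains. For the 646 of them that were alone in their broad domain the median was 28.9 kb (10.6 and 83.8).

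Among the broad domains without a coding start, the 5 widest are described. The widest, of 24000 bp (chromosome 15, 85663501 to 85687500), lay within the noncoding gene Lncppara, the transcript that runs into the let-7 hairpins Mirlet7c-2 and Mirlet7b, and ended before them. Domains of 13000 bp and 11000 bp on chromosome 13 lay inside the coding gene 2010111I01Rik, over starts of Gm47586 and of Gm47585 and Gm47602, and the second ended at 63281500, ahead of the hairpins Mir23b, Mir27b and Mir24-1, which begin at 63300484. A domain of 10500 bp on chromosome 14 held the start of Dleu2, the host transcript of the miR-15 and miR-16 hairpins. The fifth, of 9500 bp on chromosome 13, held the start of C230035I16Rik, and Neat1, the noncoding RNA of paraspeckles, had the same width (named after its value was seen). H3K27ac covered all 5 of these domains completely at both oxygen levels.

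Around the start, the domains were not symmetrical. Among the 655 with a single coding gene, a median of 1505 bp lay upstream of the outermost start and 4110 bp downstream, and the downstream part was the longer in 561 (85.6%; 82.8 to 88.1%). In narrower domains with a single gene these medians were 984 bp and 1647 bp, with the downstream part longer in 89.8% (89.2 to 90.4%). The medians thus differed more downstream than upstream, and the share longer downstream was not higher than in narrower domains. Taking the 307 broad domains with 1 start position only, 83.1% were longer downstream. At 3 kb downstream of the start 84.9% of the 655 domains were still called for H3K4me3 and 15.7% at the same distance upstream. H3K27ac reached further. At 5 kb downstream it was called in 47.0% at 2% O2 and in 45.6% at 21% O2, where H3K4me3 was called in 24.1%, and at 5 kb upstream H3K27ac was called in 15.7% and 15.6%. This order was not particular to broad domains. At 5 kb downstream in narrower domains with a single gene, H3K27ac was called in 8.82% and 8.41%, and H3K4me3 in 0.942%.

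**Figure D2:**
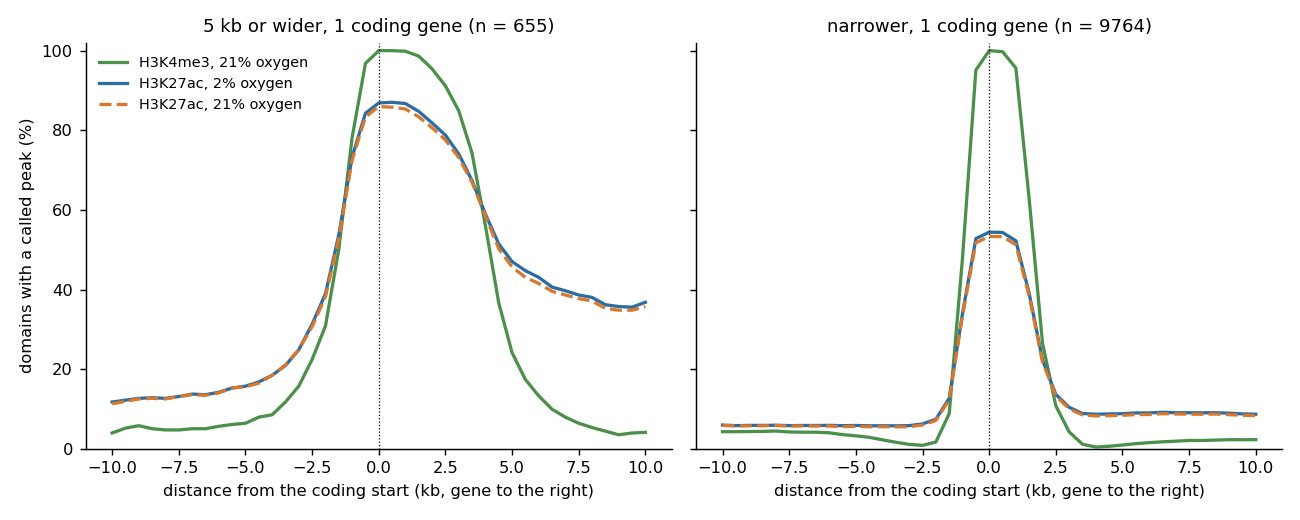
Percentage of domains with called H3K4me3 at 21% O2 (green), H3K27ac at 2% O2 (blue) and H3K27ac at 21% O2 (orange, dashed) in windows of 500 bp up to 10 kb on each side of the coding start, with the gene to the right, for the 655 broad domains with 1 coding gene (left) and the 9764 narrower ones (right). In the left panel H3K27ac crosses above H3K4me3 downstream and is still called in 36.8% of domains at 10 kb at 2% O2, and the curves of both oxygen levels almost coincide. In the right panel H3K27ac also crosses above H3K4me3 downstream, at lower shares.

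The genes at broad domains were then sorted by lists of known function. For each list, the count is of genes with a coding start in a broad domain, to be read against 5.12% of all coding genes. Among coding genes with a start in any H3K4me3 domain the share was 8.77%. Just under the limit, 1320 of the 21851 coding genes had their widest domain at 4000 or 4500 bp. This class held 10 of 31 genes of the FGF and receptor tyrosine kinase list and 7 of 23 immediate early genes. It held 11 of 33 actin cytoskeleton and YAP target genes, but 9 of 70 mesenchymal and skeletal transcription factor genes. Some lists were thus also frequent just under the limit. The lists were chosen with earlier results of these data known, so their shares are descriptions only. Of 70 mesenchymal and skeletal transcription factor genes, 39 (55.7%; 44.1 to 66.8%) started in a broad domain, and 65 had a start in an H3K4me3 domain of any width. After Nfix came Tbx15 (11500 bp), a T-box factor of limb and skeleton, Hic1 (9500 bp), a repressor found in quiescent mesenchymal progenitors, and Ebf3 (9000 bp), an EBF factor of marrow stroma, with Foxc1, Runx1 and Shox2 among others at the same width. Of the 39, 38 were the sole coding gene of their domain. H3K27ac was called over 33 of the 39 and over none of the domains of Dlx6, Ebf2, Mkx, Msx2, Nr2f1 and Osr2 (named for this after their values were seen). Among all broad domains 88.4% had H3K27ac at 2% O2, 87.4% had it at 21% O2 and 11.6% had none at either. The count for these factors was near that background.

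The labelled cell type was checked by its markers. Of 14 stromal markers 13 had H3K4me3 at a start and 7 of them a broad domain, led by the collagen I chain Col1a2 and the PDGF receptor Pdgfra (9000 bp each), Col1a1 (8500 bp) and Twist1 (8000 bp), a basic helix-loop-helix factor of mesenchyme. Runx2, the master regulator of osteoblasts, had 6500 bp (named after its value was seen). The exception was Ly6a, the gene of the sort marker Sca-1, which had no H3K4me3 at a start. None of the 9 blood markers and none of the 4 muscle markers had H3K4me3 at a start at all. Endothelial markers had it for 2 of 7, neural markers for 2 of 6 and epithelial markers for 2 of 5, and none of these was broad.

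Signalling genes were counted next. In BMP and TGF-beta signalling these were 19 of 50 genes (38%), with Smad7, Inhba (11000 bp), which encodes an activin subunit, the Smad corepressor Ski (10500 bp) and the BMP target Id2 (8000 bp). In the list of FGF and receptor tyrosine kinase feedback these were 11 of 31, with the insulin receptor substrate Irs1 (11000 bp), Pdgfra, Fgfr2 (7500 bp) and the fibroblast growth factor gene Fgf7 (7000 bp). Among Wnt genes these were 15 of 56, with the transducer Dvl2 (11500 bp, shared by 3 genes), the ligand Wnt5a (8500 bp) and the receptors Fzd5 and Fzd7 (7000 bp each). Immediate early genes, among them the AP-1 family, gave 10 of 23, with Fosl2 (9000 bp), Ier2 (6500 bp), Junb and Klf6 (6000 bp each). Of 32 hypoxia response genes 11 (34.4%; 20.4 to 51.7%) started in broad domains, namely at most 7500 bp for the repressor Bhlhe40, 6500 bp for the angiogenic factor Vegfa, and 6000 bp for the collagen cross-linker Lox and the glucose transporter Slc2a1.

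Genes of the cytoskeleton and matrix followed. Actin cytoskeleton and YAP target genes gave 13 of 33, with the calponin Cnn2 (10000 bp, shared by 2 genes), the myosin heavy chain Myh9 and the tropomyosin Tpm1 (9000 bp each) and Amotl2 (7500 bp). For collagen genes the count was 7 of 44, of which 29 had H3K4me3 at all, with Col1a2, Col1a1, Col5a1 (7000 bp) and Col5a2 (6000 bp). Osteogenic genes gave 8 of 28, led by Sparc (9500 bp), which encodes osteonectin, Col1a2, Fosl2 and Col1a1, so that these entries partly repeat other lists. Adipogenic genes gave 6 of 19, with Cebpb and Zfp423 at 5500 bp and Cebpa and Ebf2 at the limit of 5000 bp. Chondrogenic genes gave 4 of 15, with Sox6 at 6000 bp, Col11a1 and Sox9 at 5500 bp and Ihh at 5000 bp.

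In the lists of ribosomal protein, respiratory complex I and proteasome genes, no gene was the sole coding gene of a broad domain. Cytosolic ribosomal protein genes gave 9 of 83, including Rpl7a (9500 bp) and Rpl19 (8000 bp) as well as Rpl13a and Rpl36 (7500 bp each), mitochondrial ribosomal protein genes 5 of 78 (Mrpl2, Mrpl49, Mrpl36 and Mrpl54 the widest), respiratory complex I genes 3 of 36 and proteasome subunits 3 of 39 (Psmb3, Psmc2 and Psmb1). All of these shared their domain with at least 1 other coding gene, whereas 57.7% of the 1119 genes at broad domains did not. Of the genes with H3K4me3 at a start, the broad share in these lists was 11.25%, 6.41%, 8.33% and 8.11%, in the order given. For all such coding genes it was 8.77%. Of 67 replication-dependent histone genes 20 lay in 6 broad domains of the histone clusters, of which the widest, of 10500 bp, held Hist1h1b, Hist1h2an, Hist1h2bp and Hist1h3i. The list of H3K4 methylation writers and erasers gave 4 of 25 (Setd1b, Kdm6b, Kmt2d at 6500 bp and Kdm2a at 5000 bp). This list also holds genes that act on other lysines, such as Kdm6b on H3K27me3, so the 4 are not all H3K4 enzymes. Genes of citrate export, acetyl-CoA and histone acetylation gave 3 of 37 (8.11%; 2.80 to 21.3%), namely the reader Brd2 (10000 bp, shared by 2 genes), the deacetylase Hdac7 (8500 bp) and Acss2 (6500 bp, shared by 2 genes). Of the 34 genes of this list with H3K4me3 at a start these were 8.82%, near the 8.77% of all such coding genes. Protocadherin cluster genes gave 0 of 57, with H3K4me3 of any width at 4.

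**Figure D3:**
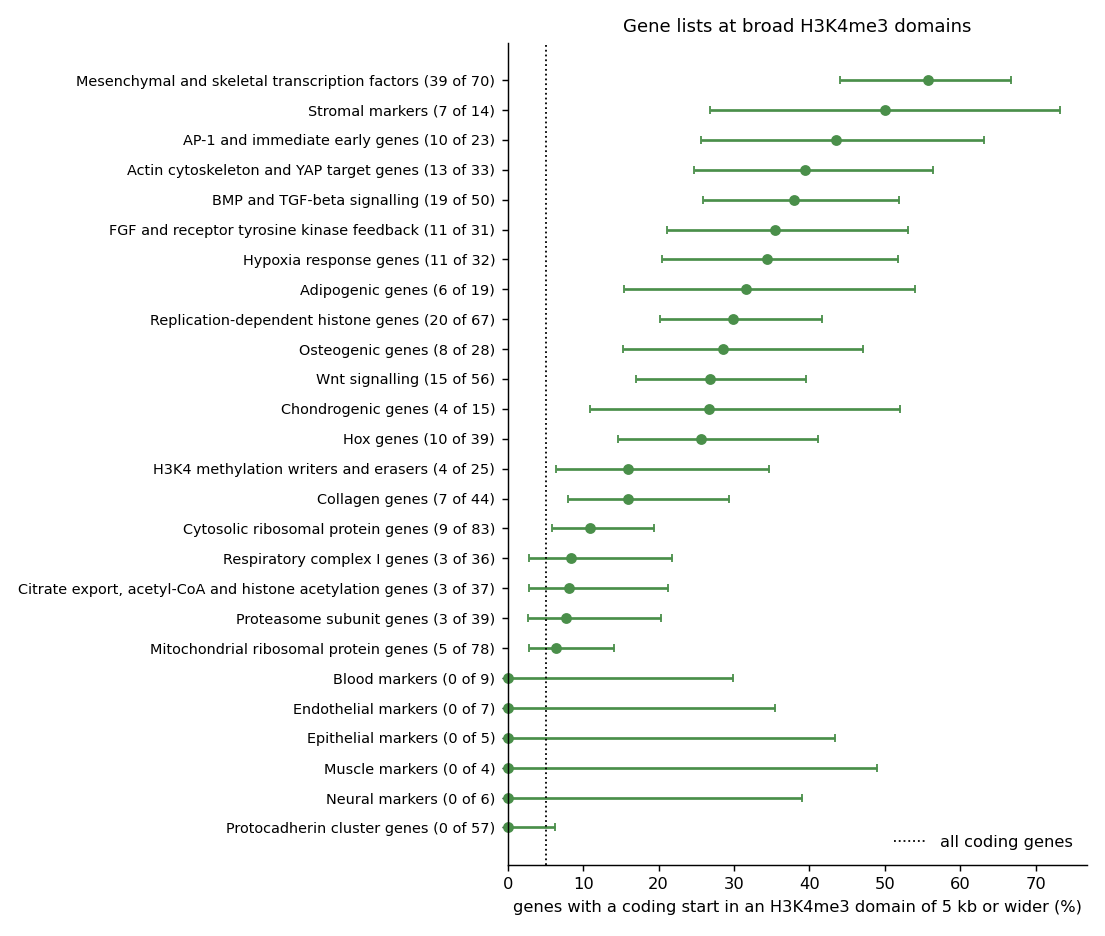
Percentage of the genes of each list with a coding start in a broad H3K4me3 domain, with the count in brackets, where bars are 95% Wilson intervals and the dotted line is the share of all coding genes (5.12%). Mesenchymal transcription factors (55.7%) stand at the top, and 6 lists, among them all non-stromal cell type markers, stand at 0. The lists were chosen with earlier results of these data known.

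H3K27ac was called over 814 of the 921 broad domains at 2% O2 (88.4%; 86.2 to 90.3%) and over 805 at 21% O2 (87.4%; 85.1 to 89.4%). Among all H3K4me3 domains these shares were 56.5% and 55.5%. The high share was not particular to the limit of 5000 bp, as domains of 4000 or 4500 bp had 88.5% and 87.5%, whereas of the 50 domains of 10000 bp or more 98.0% (89.5 to 99.6%) carried H3K27ac at each oxygen level. By base, H3K27ac covered 85.7% of the broad domains in hypoxia and 84.7% in normoxia, against 57.6% and 56.5% of the narrower ones. The cover was complete in 666 domains at 2% O2 and in 658 at 21% O2, and partial in 148 and 147. In 141 and 139 of the partly covered domains H3K27ac reached 1 end and left the other, and in 7 and 8 it lay inside without reaching an end. Whether or not it lay inside, H3K27ac was called in the window next to an end of the domain in 407 (44.2%) and 393 (42.7%). This was the case for 13.8% and 13.2% of narrower domains and for 34.2% and 32% of those of 4000 or 4500 bp. The peak caller was run in its differential mode, which models both oxygen levels of a mark together, and both marks were called on the same bins. Equal borders at both oxygen levels are therefore not independent calls.

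Where H3K27ac covered a broad domain in part, it lay on the part with more CpG. At 2% O2 the covered pieces of the 148 domains held 4.5 CpG per 100 bp and the uncovered pieces 2.52, and the covered piece had the lower density in 18 domains (12.2%; 7.83 to 18.4%). At 21% O2 these values were 4.48, 2.58 and 20 domains (13.6%). The same order was found in narrower domains, with 5.00 and 1.40 CpG per 100 bp at 2% O2. In the Sox9 domain, for instance, H3K27ac covered 81.8% at both oxygen levels, in that of Nog 53.8% and in that of Igf1r 63.6% (chosen after their values were seen). The 806 H3K27ac peaks that overlapped a broad domain and had the same position in both lists were scored by the authors higher in hypoxia in 217 cases, higher in normoxia in 22 and equally in 567. Elsewhere the counts leaned the same way, with 2356 higher in hypoxia, 428 higher in normoxia and 3686 equal over narrower domains, and 3251, 1975 and 2112 outside H3K4me3. How this score was defined is not stated, and without replicates these differences have no error.

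At 107 broad domains (11.6%; 9.71 to 13.8%) no H3K27ac was called at either oxygen level, nor in the windows next to their ends. The widest lay at Tbx1 (11000 bp, chromosome 16, 18581001 to 18592000), a T-box factor of the pharyngeal arches, followed by a domain of 8000 bp without an annotated start on chromosome 13 (21166501 to 21174500) and by domains of 7500 bp at Cops7b and Pde6d, Dpf1, Fgf9, Scrt1, and Gbf1 and Pitx3. At 7000 bp came those of Gnas, Elavl2, Rnf207, Gfi1, Elfn1, Bcl11a, Dph1 and Rtn4rl1, Tfap2a, Irx2, Nr2f1 and Gabbr1. These genes, all those of the domains of 7000 bp or more without H3K27ac, were named after their values were seen. They include the transcription factor genes Tfap2a, Irx2, Nr2f1, Bcl11a, Gfi1, Pitx3 and Scrt1, as well as Gnas, a G protein subunit, and Gabbr1, a GABA receptor subunit. Of the 107, 94 held a coding start and 77 a single coding gene. Their DNA was richer in CpG, with a median of 4.57 per 100 bp (quartiles 3.45 and 5.38) against 3.49 (2.78 and 4.40) in the 814 domains with H3K27ac. At least 2 CpG islands lay in 87 of them (81.3%; 72.9 to 87.6%), compared with 385 of the 814 (47.3%; 43.9 to 50.7%). Their median width was 5500 bp and that of the 814 was 6000 bp.

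The oxygen levels differed in called H3K27ac at 15 of the 921 domains (1.63%; 0.989 to 2.67%), next to 1.51% of all H3K4me3 domains. This share was near the background. In all 15 the cover was larger at 2% O2, which was the case for 1.33% of all H3K4me3 domains, and in none was it larger at 21% O2 (background 0.175%; 3 domains of 921, which a count of 0 allows, are 0.326%). In each of the 15, a single peak was called in hypoxia and not in normoxia. These peaks covered 60.5 kb of broad domains in total, 10 of them held a coding start, and 5 covered the domain from end to end. Their scores were low, with a median of 64 (51 to 131) against 111 for the hypoxia H3K27ac list, and 14 of 15 were below that median.

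In 9 of these domains no H3K27ac was left at 21% O2. Gata2, a zinc finger factor of blood progenitors and also of mesenchymal precursors, had 7000 bp of its 8000 bp domain covered at 2% O2 (score 56). The domain without a coding start on chromosome 8 (120226501 to 120233000), inside Gse1, had 6500 bp (score 58). Mllt6 had 6500 bp with the highest score of the 15 (131). Nrn1, which encodes the membrane protein neuritin, also had 6500 bp (score 79), and the domain shared by the proton pump gene Atp6v0b and the galactosyltransferase gene B4galt2 had 6000 bp (score 54). Zcchc24 had 5000 bp (score 103), and the homeobox gene Dlx1 had 4500 bp (score 55), where the peak began past the coding start. Tenm4, a teneurin, had 4000 bp (score 64) and Rspo2, an R-spondin that strengthens Wnt signalling, had 4000 bp (score 101). Among the genes of the 26 lists with a broad domain, Rspo2 was the only gene whose called cover differed between the oxygen levels.

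In the other 6, part of the domain was covered at both oxygen levels and the cover was larger in hypoxia. The difference was 3500 bp at Flrt2, a fibronectin leucine-rich transmembrane protein gene (score 59), and 2000 bp at the protocadherin Fat4 (score 94), whose domain of 11500 bp was the widest of the 15. It was 1500 bp in the domain of Cntrob, Kcnab3 and Trappc1 (score 51), where the peak held the start of Kcnab3, and 1500 bp in that of Cdk2ap2 and Pitpnm1 (score 65), where it held the start of Pitpnm1. At Atp5d and Cbarp and at Gpr108 and Trip10 it was 1000 bp, with scores of 63 and 64. With 1 list for each oxygen level it cannot be said whether any of these differences exceeded the spread between the libraries.

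**Figure D4:**
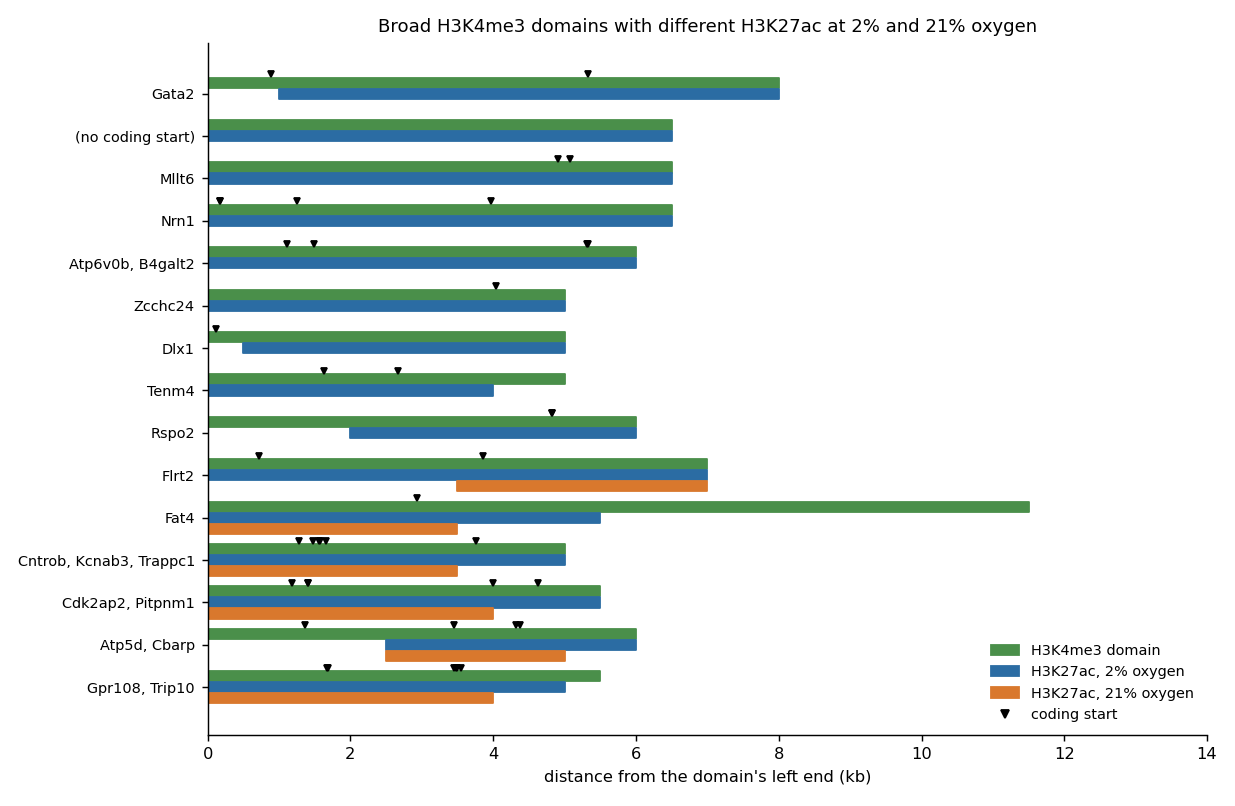
The 15 broad domains whose called H3K27ac differed between oxygen levels, drawn to scale in kb from the left end of each domain, with H3K4me3 at 21% O2 in green, H3K27ac at 2% O2 in blue, H3K27ac at 21% O2 in orange and coding starts as triangles. The upper 9 rows have no H3K27ac at 21% O2, and the lower 6 keep part of it.

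In sequence, broad domains held more CpG islands per domain, but islands made up a smaller part of their length. A CpG island (at least 500 bp of DNA in windows of 200 bp with 50% or more GC and an observed to expected CpG ratio of 0.6 or more) lay in 95.1% of broad domains and 90.1% of narrower ones. At least 2 islands lay in 472 broad domains (51.2%; 48.0 to 54.5%), against 18.2% (16.1 to 20.5%) at 4000 or 4500 bp and 5.57% of narrower domains, and this share reached 72.0% at 10000 bp or more. The median length of island in a domain was 1968 bp in broad and 982 bp in narrower domains. As a share of the domain, the median was 31.9% in broad domains (quartiles 21.2 and 44%), 37.3% in narrower ones and 36.1% at 4000 or 4500 bp. The median CpG density was 3.58 per 100 bp in broad domains (quartiles 2.83 and 4.55), 3.75 in narrower ones (2.97 and 4.73) and 4 at 4000 or 4500 bp. GC content was 53.6% and 52.2% (medians).

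Of 1005 RefSeq microRNA hairpins on the chromosomes, 137 lay in an H3K4me3 domain of any width and 37 in 31 broad domains, 6 of which had no coding start. H3K27ac was called at both oxygen levels over the domains of 33 hairpins and at neither for 4. Among all broad domains H3K27ac was called in 88.4% at 2% O2 and 87.4% at 21% O2, so the count for the 37 hairpins was near the background. Among the 63 mature sequences of these hairpins 4 seeds occurred in 2 hairpins each, namely the 3 pairs printed above and that of miR-195a and miR-497, which lay in the domain of 9000 bp at 0610010K14Rik and Rnasek. Of the hairpins in broad domains without a coding start, Mir125b-1 (9000 bp), Mir22 and the pair Mir125a and Mirlet7e (5500 bp each) and Mir193a (5000 bp) were covered by H3K27ac completely at both oxygen levels, whereas Gm23450 (5500 bp) and Mir9-3 (5000 bp), a microRNA of the nervous system, had none. The other hairpins without H3K27ac were Mir6402 in the Elavl2 domain (7000 bp) and Mir1247 in the Dio3 domain (6000 bp). These hairpins were named after their values were seen.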

How the data were processed

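H3K27ac, H3K4me3 and input ChIP-seq was made at 2% and 21% O2, with 2 libraries in each of 6 groups (12 libraries). Reads were mapped to mm10 with bowtie2, duplicates were removed with Picard MarkDuplicates, spike-in reads were mapped to yeast, and peaks were called with chromstaR in differential mode (bin 1000 bp, step 500 bp, minimum mapping quality 15). Tool versions are not given in the sources used here. The 4 deposited peak lists give a position and a score for each interval, both libraries of a group being joined by the authors, and how the score was defined is not stated. They hold no read counts, so depth is unknown, and input libraries were not analysed here. No per-sample column was left unused (0 columns).

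Touching intervals (gap 0 bp) were merged and domains of 5000 bp or more kept. Starts came from GENCODE M21 basic, promoters and microRNAs from RefSeq (GRCm38.p6). Overlaps, CpG counts and CpG islands were computed in Python 3.11.15 (numpy 2.4.6, pandas 2.3.3, scipy 1.17.1, matplotlib 3.10.9), with functions tested on simulated intervals. Of the Actin cytoskeleton and YAP list, Cyr61 and Ctgf were also listed under their newer symbols and counted once, and the antigen name Ly76 was left out of the blood list, which then held 9 genes.

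Genes were named by rule: coding starts in the 20 widest domains, the 5 widest domains without one, all domains whose H3K27ac differed, up to 3 examples at the limit, and up to 4 genes with the widest domain in each list. Some genes that the rule would name are not reported here. The members and lists were chosen with earlier results of these data known. Alternatives covered the width limit, merging, the starts used, the hypoxia list, low-scoring peaks and sex chromosomes.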

Additional observations from a re-analysis of the deposited data

How the results depend on the processing

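No paired analysis was possible because the peaks of a group were called from its libraries jointly and have no replicate number, and for the same reason no replicate could be left out. Of 66 alternative values for 8 results, 44 stayed inside the 95% interval of the reported value (counts within 1.5 times) and 22 moved. Whether a direction reversed was not scored. The hypoxia H3K4me3 list held the same broad domains, so its values for the 8 results had to equal the reported ones. They are counted among the 44. For the shares of bases the interval treated each 500 bp window as independent, which neighbouring windows are not. Whether those shares stayed or moved is therefore only a rough guide. The number of broad domains was 2104 at a limit of 4000 bp, 460 at 6000 bp and 130 at 8000 bp. At 8000 bp, 92.3% held a coding start, H3K27ac lay over 98.5% of domains and 95.8% of bases at 2% O2 and over 97.7% and 95.1% at 21% O2, and the median CpG density was 3.33 per 100 bp. At 6000 bp H3K27ac lay over 90.7% of domains and 88.1% of bases at 2% O2 and over 86.9% of bases at 21% O2, and at 4000 bp the CpG density was 3.82. With 1 start per gene, 85.5% held a coding start. Merging across 1000 bp gave 84.8% and 83.7% of bases at 2% and 21% O2, and leaving out the lowest-scoring 25% of H3K4me3 intervals gave 88.7% and 87.7%. Leaving out the lowest-scoring 25% of H3K27ac peaks gave 85.6% of domains and 83.5% of bases at 2% O2, and 83.8% and 81.9% at 21% O2. Under that setting 21 broad domains differed, 19 with more H3K27ac at 2% O2 and 2 with more at 21% O2. This was 2.28% of broad domains, next to 407 (3.1%) of all H3K4me3 domains, so the share was then below the background, and the single direction of the 15 did not hold. The cause of these shifts was not tested beyond the construction of each setting. Without replicates or read counts, no difference between oxygen levels can be set against the spread between libraries.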
